A study of Mus musculus with 8 samples.

Results

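RNA bound by NONO in liver nuclei was compared between mice re-fed for 2 h and fasted mice. The regions are the union of the anti-NONO peaks of both livers: peaks that overlapped by 1 bp were joined, and each region was put in the class 2 h list only, fasted list only or both lists. The 61737 peaks of the 2 h re-fed library and the 38209 peaks of the fasted library gave 79914 regions, out of 206501 peaks in the 4 peak lists of the series. The animals were wild-type C57BL/6 mice of 14 weeks that had eaten only in the dark phase for a week, and the material was liver nuclei. The 2 h re-fed group was sampled at zeitgeber time 14 (hours after lights on), and the fasted group at zeitgeber time 10, so feeding and time of day cannot be told apart. RNA immunoprecipitation (RIP) with an anti-NONO antibody was sequenced beside the input RNA of the same lysate. Each library is 1 pool of 2 independent experiments, so there is 1 library a side, no replicate check and no p-value. A control RIP with non-specific IgG, whose feeding state the labels do not give, was used to mark regions, and the RIP taken at 10 h of re-feeding was used only to say which regions it met.

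NONO is a nuclear RNA-binding protein that works in pairs with its relatives SFPQ and PSPC1. The 3 proteins are core components of paraspeckles, bodies in the nucleus that form around the long RNA Neat1, and they also take part in transcription, splicing and the retention of RNA in the nucleus. In liver, fasting calls on gluconeogenesis, fatty acid oxidation and amino acid breakdown, and re-feeding on glucose use, glycogen storage and lipid synthesis.

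Most regions lay in introns, and annotated transcripts give the bases of a region where an exon or a retained intron covers it. The central 300 bases lay in such an exon, clear of untranslated exons, in 2290 of the 79914 regions (GENCODE M21, GRCm38). They are shown for IgG-free regions of each class that were among those with most tags, to let the RNA be read: 2 regions of the 2 h list only, 3 of the fasted list only and 1 of both lists. Letters run 5′ to 3′ on the transcript strand, and capitals mark AGGGA, the splice donor consensus GTAAGT, and a run of T written TTTTTTT. The regions of the 2 h list only lie in retained-intron transcripts of Bhmt (which remethylates homocysteine) and Uox (urate oxidase). That type belongs to the whole transcript, and whether a window lies in the retained part was not tested.
Bhmt, chr13:93623820-93624119, minus strand: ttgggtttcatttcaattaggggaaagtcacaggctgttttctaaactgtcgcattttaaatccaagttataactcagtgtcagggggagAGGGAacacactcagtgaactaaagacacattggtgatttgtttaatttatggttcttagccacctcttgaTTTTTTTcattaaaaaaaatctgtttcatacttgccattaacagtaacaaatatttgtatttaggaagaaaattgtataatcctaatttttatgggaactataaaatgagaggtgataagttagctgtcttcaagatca
Uox, chr3:146610763-146611062, plus strand: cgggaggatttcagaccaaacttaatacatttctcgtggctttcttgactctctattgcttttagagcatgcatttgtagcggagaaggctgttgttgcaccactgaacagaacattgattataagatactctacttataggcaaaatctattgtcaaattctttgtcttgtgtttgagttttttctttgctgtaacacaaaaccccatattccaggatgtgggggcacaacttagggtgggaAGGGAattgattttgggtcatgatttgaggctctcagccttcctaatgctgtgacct
Of those of the fasted list only, the first lies in a coding exon of Srrm2 (a splicing co-factor). The others lie in retained-intron transcripts of Upb1 (a pyrimidine breakdown enzyme) and Ercc5 (a DNA repair nuclease).
Srrm2, chr17:23817303-23817602, plus strand: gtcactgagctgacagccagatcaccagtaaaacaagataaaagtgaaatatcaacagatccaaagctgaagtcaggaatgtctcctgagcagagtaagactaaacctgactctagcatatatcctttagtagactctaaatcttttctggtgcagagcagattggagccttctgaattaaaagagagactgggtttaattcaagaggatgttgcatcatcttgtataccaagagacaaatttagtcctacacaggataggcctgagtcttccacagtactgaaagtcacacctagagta
Upb1, chr10:75425699-75425998, plus strand: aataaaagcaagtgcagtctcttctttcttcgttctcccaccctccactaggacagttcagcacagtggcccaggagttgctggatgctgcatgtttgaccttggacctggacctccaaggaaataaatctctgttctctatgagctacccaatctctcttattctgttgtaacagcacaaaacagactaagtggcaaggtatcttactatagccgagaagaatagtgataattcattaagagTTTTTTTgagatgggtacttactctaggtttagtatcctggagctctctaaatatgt
Ercc5, chr1:44148814-44149113, plus strand: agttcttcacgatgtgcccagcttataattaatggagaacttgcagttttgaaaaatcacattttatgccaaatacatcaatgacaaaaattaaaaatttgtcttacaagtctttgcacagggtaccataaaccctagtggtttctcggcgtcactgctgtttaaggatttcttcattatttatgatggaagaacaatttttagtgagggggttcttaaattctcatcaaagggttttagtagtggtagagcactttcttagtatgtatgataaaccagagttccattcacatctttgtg
The shared region lies in the long non-coding RNA 6720427I07Rik.
6720427I07Rik, chr13:48536515-48536814, minus strand: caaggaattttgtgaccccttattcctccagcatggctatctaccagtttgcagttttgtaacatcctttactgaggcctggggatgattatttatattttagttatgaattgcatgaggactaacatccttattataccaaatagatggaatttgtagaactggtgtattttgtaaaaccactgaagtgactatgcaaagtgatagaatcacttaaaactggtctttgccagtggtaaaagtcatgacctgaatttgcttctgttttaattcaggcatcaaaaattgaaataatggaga

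The Bhmt region held 999.0 normalised tags (tags in the peak per 10000000 library tags) at 2 h and no listed fasted peak. The Uox region held 537.7 tags at 2 h, again with no fasted peak. The Srrm2, Upb1 and Ercc5 regions held no 2 h peak and 189.7, 114.6 and 87.5 tags in the fasted liver. A list holds only windows past its thresholds, so a missing peak is an unknown number of tags and not a 0. The region of 6720427I07Rik had 2007.5 tags at 2 h and 1598.9 tags in the fasted liver.

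The 3 motifs did not separate the classes. AGGGA was on the transcript strand in 26.1% of the 1279 windows of the 2 h list only (95% Clopper-Pearson interval 23.7 to 28.6%), 30.2% of the 516 of the fasted list only (26.3 to 34.4%) and 27.1% of the 495 of both lists (23.2 to 31.2%). GTAAGT was in 6.33%, 8.91% and 8.08% of the same windows, and TTTTTTT in 17.4%, 17.2% and 20.8%, with overlapping intervals in each case. The central 300 bases of all 45431 annotated exons of that kind held AGGGA in 31.9%, GTAAGT in 4.3% and TTTTTTT in 6.8%, and had a median GC of 48.3%, against 41%, 40.7% and 39.7% in the windows of the 3 classes. On either strand AGGGA was in 48.7%, 51.7% and 47.7% of the windows of the 3 classes and in 55.9% of all such exons. GTAAGT and TTTTTTT can share their end T, and these windows are the small annotated slice of mostly intronic regions.

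The libraries were of like depth, with 21091048 tags in the 2 h re-fed RIP and 21032764 tags in the fasted RIP, and 26.0% of the 2 h tags and 11.6% of the fasted tags lay in listed peaks. The smallest peak of either list rested on 8 tags. The values describe 2 libraries, and a difference between them holds both the spread between animals and any difference in the efficiency of the RIP, which cannot be told apart from the feeding state. In bulk nuclei, fewer cells of a type and less RNA per cell cannot be told apart either.

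The peaks of the 2 h re-fed liver covered more RNA, and most regions belonged to 1 list. Of the 79914 regions, 43888 (54.9%, interval 54.6 to 55.3%) were in the 2 h list only, 18658 (23.3%, 23.1 to 23.6%) in the fasted list only and 17368 (21.7%, 21.4 to 22%) in both. They covered 38.8 Mb, 11.9 Mb and 37.2 Mb. Shared regions were the widest, with a median of 1542 bp, against 638 bp for the 2 h list only and 500 bp, the width of 1 calling window, for the fasted list only. The 2 h only regions held 47.4% of all tags in 2 h peaks, and the fasted only regions 30.7% of those in fasted peaks. The best fold over input had a median of 3.24 in the 2 h list only, 3.19 in the fasted list only and 3.12 in both lists. Every listed peak had to pass 2-fold, and a region takes the largest fold of its peaks. These medians therefore cannot show whether the classes were alike in enrichment. With the 2 h list limited to its 38209 best-scoring peaks, the length of the fasted list, 25157 regions were in the 2 h list only and 23529 in the fasted list only.

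**Figure D1:**
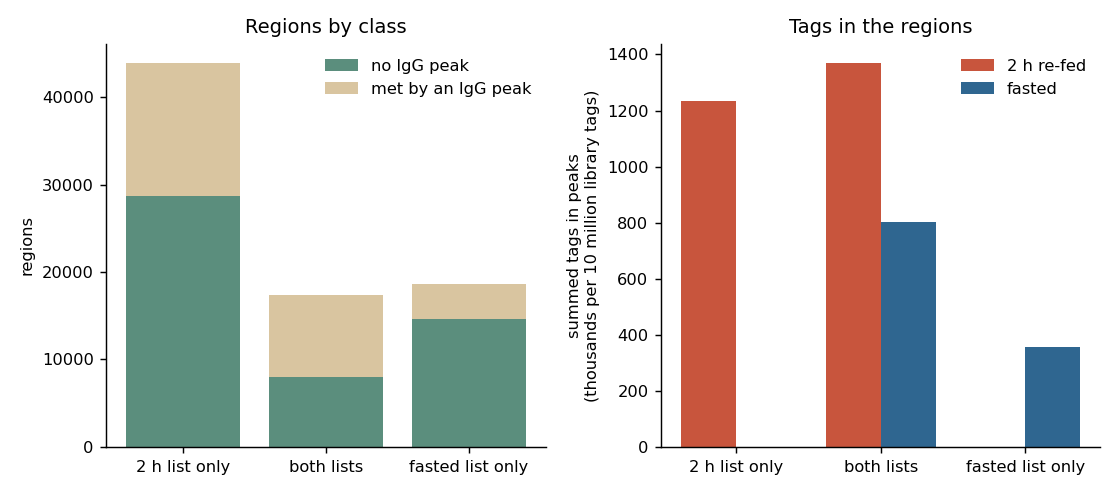
Left, number of regions in each class, split by whether an IgG peak overlapped them. Right, summed normalised tags of the 2 h re-fed and fasted peaks in the same classes. Regions of the 2 h list only were the most numerous (43888), and shared regions were met by IgG peaks most often (9399 of 17368).

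IgG peaks met the classes unequally. They overlapped 34.5% of the 2 h only regions, 21.6% of the fasted only regions and 54.1% of the shared ones, leaving 28729, 14620 and 7969 regions free of IgG peaks. The IgG list is long, with 55946 peaks over 54.6 Mb, against 71.0 Mb under the 2 h peaks and 29.7 Mb under the fasted peaks. The part of non-specific recovery in the difference between the lists was not tested. Values are of all peaks unless called IgG-free. The 10 h list met 32.0% of the 2 h only regions, 25.3% of the fasted only regions and 62.9% of the shared ones. An overlap of 1 bp counts as met, so a wider region is met more readily. The IgG and 10 h shares follow the order of the median widths of the classes, and the part of width in them was not tested.

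Introns held 86.4% of the midpoints of the 2 h only regions, 85.7% of the fasted only regions and 88.8% of the shared regions. Midpoints outside every gene body and within 1000 bp before a gene start were counted apart. They made up 1.51% (1.40 to 1.63%) of the 2 h only regions and 0.493% (0.398 to 0.604%) of the fasted only regions, and the intervals did not overlap. Untranslated exons held 2.15% (2.02 to 2.29%) of the 2 h only regions and 2.87% (2.64 to 3.12%) of the fasted only regions. Within genes of at least 20 kb, the median midpoint lay at 47.1%, 49.3% and 44.5% of the gene from its start in the 2 h only, fasted only and shared regions. These intervals cover counting error only, as do all others here, and reads without molecular identifiers are not independent molecules.

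Where both livers had a peak, the 2 h peak was broader and not denser. The 2 h over fasted ratio of summed tags had a median of 1.26 over the 17368 shared regions (quartiles 0.748 and 2.24), and 29.5% of them were at least 2-fold higher and 11.4% at least 2-fold lower at 2 h. The covered length had a median ratio of 1.49, while tags per covered bp had a median ratio of 0.835. Input tags under the peaks had a median ratio of 1.19 and the fold over input one of 1.07. In 1586 regions several fasted peaks lay under 1 peak of the 2 h list, and in 339 regions several 2 h peaks lay under 1 fasted peak.

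The ratio of tags differed with the IgG list. It had a median of 1.59 in the 9399 shared regions that an IgG peak met and of 1.0 in the 7969 that none met. In the IgG-free regions 17.6% were at least 2-fold higher and 15.8% at least 2-fold lower at 2 h, and the covered length still had a median ratio of 1.21. Among the 1338 regions in which 1 peak of each list overlapped by at least 80% of the longer one, the tag ratio had a median of 0.847. The joining rule had few close cases: of 20032 overlapping pairs of a 2 h and a fasted peak, 532 overlapped by under 50 bp, and 402 neighbouring regions of opposite lists lay less than 50 bp apart.

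**Figure D2:**
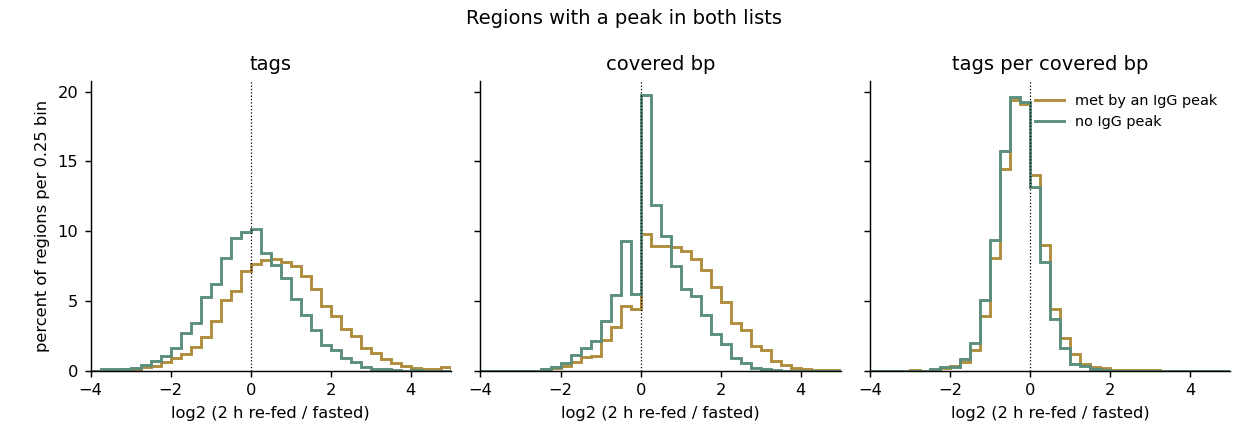
Distribution over the shared regions of the log2 ratio of the 2 h re-fed to the fasted library, for summed tags, covered bp and tags per covered bp, in bins of 0.25. The axes run from -4 to 5, with higher values in the last bin. Tag ratios of regions met by IgG lie to the right of those of IgG-free regions (medians 1.59 and 1.0), and both density curves centre below 0 (median ratios 0.850 and 0.818).

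Gene bodies showed the same pattern of more covered RNA at 2 h. A peak in either list overlapped 9563 genes, of which 6250 had a peak in both. Among those 6250, 2809 (44.9%) had at least 2-fold more summed tags at 2 h and 499 (7.98%) at least 2-fold fewer. A further 2482 of the 9563 (26%) had a peak in the 2 h list only and 831 (8.69%) in the fasted list only. With lists of equal length these numbers were 1481 and 1688. Of the 2809 genes called higher, 2576 also had at least 2-fold more covered bp, and 177 at least 2-fold more tags per covered bp. Of the 499 called lower, 245 had at most 0.5 times the covered bp and 151 at most 0.5 times the tags per covered bp.

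With IgG-free peaks, 5508 genes had a peak in both lists, and 1804 (32.8%) were at least 2-fold higher and 653 (11.9%) at least 2-fold lower at 2 h. In that setting 2308 of 8788 genes (26.3%) had a peak in the 2 h list only and 972 (11.1%) in the fasted list only. The calls kept in both settings were 1571 higher and 390 lower genes. The median gene ratio was 1.80 with all peaks (0.85 on the log2 scale) and 1.40 with IgG-free peaks (0.48). Input tags under the peaks of a gene had a median ratio of 1.76 and the fold over input one of 1.03, with every peak bound to at least 2-fold by the calling. Genes with a peak in 1 list only were shorter (median 14.7 kb for the 2 h list only and 14.6 kb for the fasted list only, against 48.5 kb for the genes called higher), and 1658 of the 2482 rested on 1 peak.

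**Figure D3:**
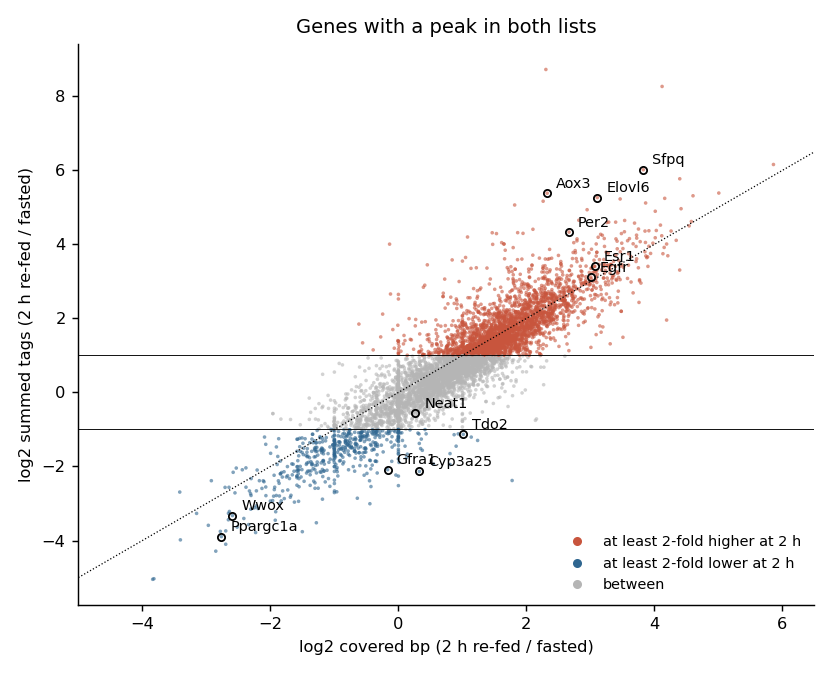
Each point is 1 of the 6250 genes with a peak in both lists, by the log2 ratio of covered bp and of summed tags of the 2 h re-fed over the fasted library. The dotted line marks equal ratios and the horizontal lines 2-fold. Egfr and Esr1 lie near the dotted line, Aox3 and Elovl6 above it, and Tdo2, Gfra1 and Cyp3a25 below it.

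The genes with the largest IgG-free difference toward the 2 h re-fed liver were Egfr, Adk, Nr1h4, Gphn, Aox3, Fn1, Dnaja1 and Dpyd. Egfr, the receptor of epidermal growth factor, had 53669.1 tags at 2 h and 6179.8 tags in the fasted liver, a ratio of 8.68 (8.53 to 8.84). Without IgG-met peaks Egfr had 4884.5 tags at 2 h and 936.1 tags in the fasted liver. Its peaks covered 98880 bp at 2 h and 12317 bp in the fasted liver, with 543 and 502 tags per covered kb. The excess at 2 h thus lay in covered length at a like density, and most of it in peaks that an IgG peak met; the IgG list held 8416.3 tags over the gene.

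Nr1h4 encodes FXR, the bile acid receptor. It had 4685.5 tags at 2 h and 596.2 tags in the fasted liver, and with IgG-free peaks 2271.6 tags at 2 h and no fasted peak. Its largest region of the 2 h list only, chr10:89463893-89470088, held 1675.6 tags at 2.44-fold over input and was met by the 10 h list. Aox3, an aldehyde oxidase, had the widest ratio of the 8, with 5299.2 tags at 2 h and 127.0 tags in the fasted liver, 41.7-fold (37.0 to 47.3), and 2170.0 and 47.1 IgG-free tags. Fn1, fibronectin, had 2698.9 tags at 2 h and 268.1 tags in the fasted liver, and 2098.6 and 251.0 IgG-free tags. Dnaja1, a co-chaperone of HSP70, had 2392.1 tags at 2 h and 601.0 tags in the fasted liver, nearly all IgG-free (2330.0 and 601.0).

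Adk, Gphn and Dpyd are long genes with many peaks. Adk, adenosine kinase, had 30160.1 tags at 2 h and 6700.0 in the fasted liver (3996.1 and 856.3 IgG-free). Gphn, gephyrin, had 11019.5 tags at 2 h and 1788.5 in the fasted liver, and held the shared IgG-free region with the widest ratio to 2 h: chr12:78504786-78509437 had 905.6 tags at 2 h and 49.9 tags in the fasted liver, 18.1-fold (14.9 to 22.3), over 4446 and 894 covered bp. Dpyd, which breaks down pyrimidines, had 31814.1 tags at 2 h and 8025.4 in the fasted liver (2761.2 and 1175.0 IgG-free).

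By the difference in IgG-free covered length, the 2 h side was led by Gulp1, Esr1, Zbtb7c, Atxn1 and Grm8. Esr1, the oestrogen receptor, was covered over 101888 bp at 2 h and 12139 bp in the fasted liver by all peaks, and over 52773 bp and 10399 bp by IgG-free peaks. Its IgG-free tags were 1082.6 at 2 h and 206.3 in the fasted liver. Atxn1, a transcriptional repressor, was covered over 213983 bp at 2 h and 44427 bp in the fasted liver (53537 and 19787 bp IgG-free), and Grm8, a glutamate receptor, over 38525 bp and 2920 bp (34077 and 2920 bp IgG-free). Gulp1, an adaptor for engulfment, had 672.5 tags at 2 h over 44197 bp and no fasted peak. Zbtb7c, a zinc-finger repressor, had 784.6 tags at 2 h over 40261 bp (671.4 tags over 35733 bp IgG-free) and no fasted peak. The peaks of Gulp1 and Zbtb7c were shallow, with 15.2 and 19.5 tags per covered kb, against 543 at Egfr.

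Among genes of the 2 h list only, those with most IgG-free tags were Slc38a2, Keg1, Gulp1, Zbtb7c and Ces1d. Slc38a2, an amino acid transporter, had 1109.0 tags at 2 h and 1064.8 at 10 h. Keg1, a glycine N-acyltransferase-like gene, had 986.6 tags at 2 h and 861.2 at 10 h, and Ces1d, a carboxylesterase of lipid droplets, 601.7 at 2 h and 366.2 at 10 h. These 3 genes thus had peaks at both re-fed times and none listed in the fasted liver. Gulp1 had none at 10 h either.

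The fasted side by summed IgG-free tags was led by mt-Nd1, Gfra1, Tdo2, Erbb4, Tmtc2, Cyp3a25, Abcc2 and Fbxo3. The peak with most tags of the fasted list only lay on the mitochondrial genome (174 to 2900, over the ribosomal RNA genes and the start of mt-Nd1) and held 20306.9 tags at 2.09-fold over input, close to the 2-fold limit. The library kit removes ribosomal RNA, and the 2 h, 10 h and IgG lists had no peak there. Gfra1, a receptor of glial-derived factors, had 799.5 tags at 2 h and 3395.4 tags in the fasted liver, a ratio of 0.235 (0.223 to 0.248), over lengths of 50598 bp at 2 h and 56859 bp in the fasted liver, and 391.3 and 2268.8 IgG-free tags. Tmtc2, an O-mannosyltransferase of the endoplasmic reticulum, had 733.5 tags at 2 h and 2116.7 in the fasted liver (615.9 and 1702.9 IgG-free). Erbb4, a receptor of the EGF receptor family, had 1039.3 tags at 2 h and 2155.1 in the fasted liver (366.6 and 1517.5 IgG-free). Its ratio of 0.482 was 0.242 with IgG-free peaks, 0.162 with lists of equal length and 0.914 with peaks of at least 3-fold over input. At Gfra1 the difference lay in tags per covered kb, 15.8 at 2 h and 59.7 in the fasted liver. The fold over input ran the other way, 3.67 at 2 h and 2.25 in the fasted liver, and with peaks of at least 3-fold over input the ratio was 13.2 at Gfra1 and 2.31 at Tmtc2.

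Tdo2, which starts tryptophan breakdown and is induced by glucocorticoids, had 908.8 tags at 2 h and 1991.6 tags in the fasted liver, and 463.2 and 1991.6 IgG-free tags. Its largest region, chr3:81967115-81968029, had 241.3 tags at 2 h over 762 bp and 1345.0 tags in the fasted liver over 914 bp, a ratio of 0.179 (0.163 to 0.197), with similar folds over input of 5.05 and 5.57. Input tags under that region were lower at 2 h as well, 47.8 at 2 h and 241 in the fasted liver. Cyp3a25, a cytochrome P450 of drug metabolism, had 466.1 tags at 2 h and 2044.0 in the fasted liver, with 72.1 and 1124.0 IgG-free tags. At 10 h Cyp3a25 had 2626.6 tags. Abcc2, the canalicular exporter of conjugates, had 266.0 tags at 2 h and 1248.9 in the fasted liver, with 48.4 and 1079.7 IgG-free tags. Of the IgG-free fasted tags of Abcc2, 992.3 lay in 1 peak of 652 bp at 2.01-fold over input, close to the 2-fold limit. Fbxo3, a ubiquitin ligase subunit, had 744.8 tags at 2 h and 1898.4 in the fasted liver, with 724.4 and 1734.4 IgG-free tags. A further fasted only region, chr1:87776035-87777484 in Atg16l1, held 707.9 tags at 3.66-fold over input and spans the small Cajal body RNA gene Gm25395.

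By the difference in IgG-free covered length, the fasted side was led by Wwox, Carmil1, Erbb4, Ccdc171 and Pde4d. Wwox, an oxidoreductase at a fragile site, was covered over 7104 bp at 2 h and 42844 bp in the fasted liver, with 95.3 and 954.8 tags (89.6 and 760.0 IgG-free, over 6604 and 34299 bp). Carmil1, an actin-capping regulator, was covered over 17108 bp at 2 h and 36472 bp in the fasted liver (10626 and 31615 bp IgG-free), and Pde4d, a cyclic AMP phosphodiesterase, over 16795 bp and 29791 bp (7454 and 23362 bp IgG-free). Erbb4 was covered by IgG-free peaks over 21769 bp at 2 h and 53296 bp in the fasted liver. Ccdc171 was covered over 1797 bp at 2 h (500 bp IgG-free) and 15984 bp in the fasted liver, all IgG-free. At each of these genes the fold over input ran the other way. It was 4.72 at 2 h and 3.37 in the fasted liver at Wwox, and 3.90 and 2.60 at Carmil1. At Erbb4 it was 3.59 and 2.66, at Ccdc171 3.93 and 3.08 and at Pde4d 3.54 and 2.80. At Wwox the 10 h list had 1651.4 tags. Of genes in the fasted list only, the leading ones after mt-Nd1 were 9030616G12Rik with 274.3 tags, Cyp3a59 with 139.3 IgG-free tags of 194.9, Fbf1 (a protein of the ciliary base) with 124.5 and Nxph1 (a neurexin ligand) with 123.6 IgG-free tags of 170.1.

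**Figure D4:**
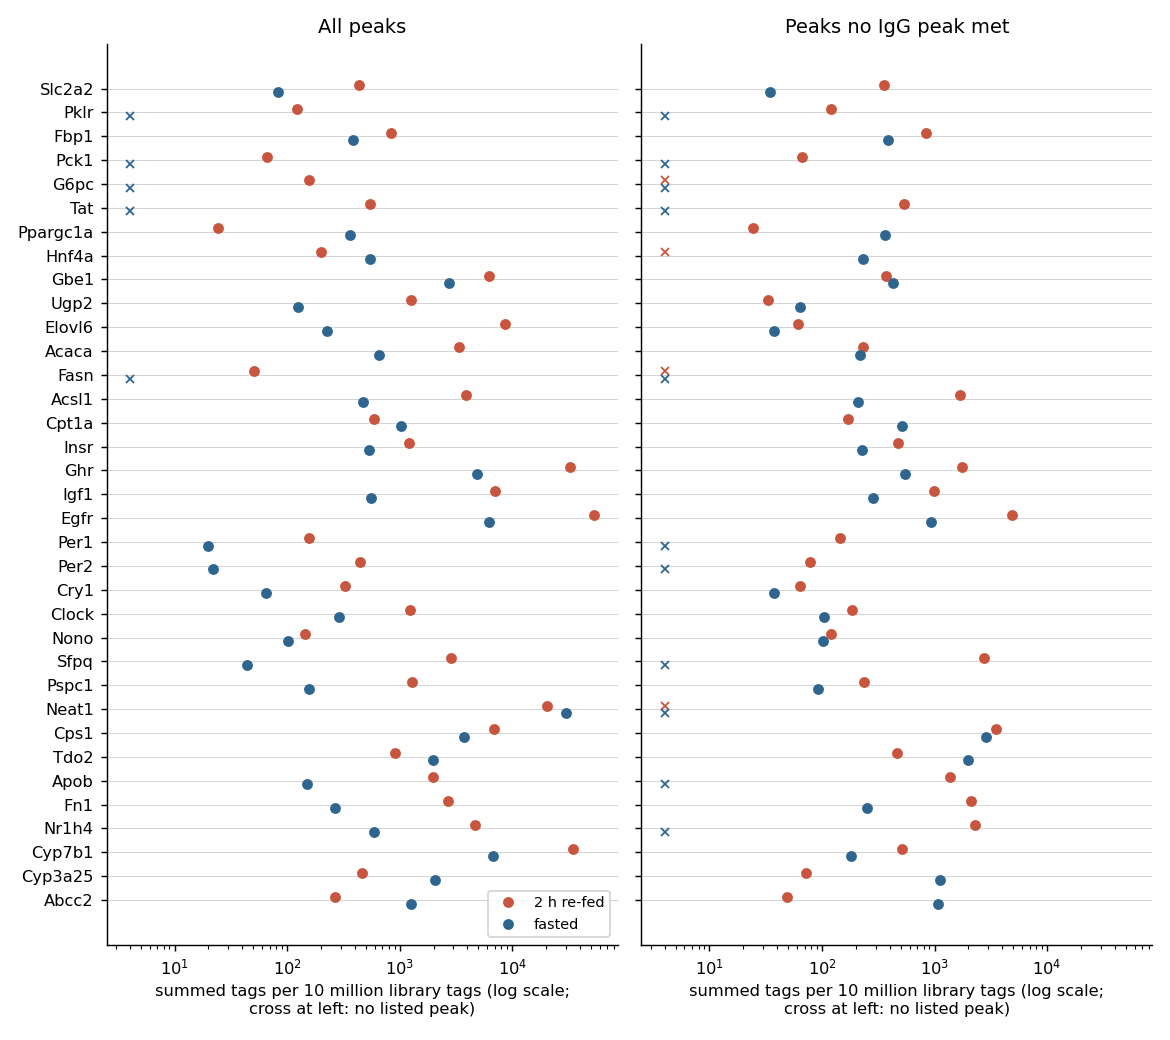
Summed normalised tags (log scale) of genes of hepatic metabolism, the clock and the paraspeckle in the 2 h re-fed and fasted lists, with all peaks on the left and IgG-free peaks on the right; a cross marks a gene with no listed peak. Ppargc1a, Tdo2, Cyp3a25 and Abcc2 lie lower at 2 h in both panels, while Elovl6 and Cyp7b1 lose most of their tags in the right panel.

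Of the list members below, up to 4 per list were chosen by their tags and others after their values were seen, for their role or because a count was small. Counts are to be read against all genes: 44.9% of those in both lists were at least 2-fold higher and 7.98% lower at 2 h, and 26% of those with a peak were in the 2 h list only and 8.69% in the fasted list only. With IgG-free peaks these shares were 32.8%, 11.9%, 26.3% and 11.1%.

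Insulin and nutrient signalling genes leaned to the 2 h list. Of 28 genes, 26 had a peak, 17 of the 23 in both lists were at least 2-fold higher at 2 h and 0 at least 2-fold lower, a share of 73.9% higher. With IgG-free peaks 11 of 23 (47.8%) were higher and 0 lower, and in either setting 3 genes (11.5%) were in the 2 h list only and 0 in the fasted list only. The median ratio was 2.87 with all peaks and 1.96 with IgG-free peaks. Insr, the insulin receptor, had 1218.4 tags at 2 h and 536.8 in the fasted liver (472.5 and 227.8 IgG-free). Igf1, the growth factor made by the liver, had 7080.8 tags at 2 h and 550.6 in the fasted liver (990.4 and 284.4 IgG-free), and Ghr, the growth hormone receptor that induces it, 32526.2 and 4829.1 (1743.0 and 549.2). With peaks of at least 3-fold over input the ratio at Ghr was 0.46. Foxo1 and Foxo3, transcription factors that insulin keeps out of the nucleus, had 2306.8 and 2755.6 tags at 2 h and 808.6 and 1003.4 in the fasted liver, but with IgG-free peaks 114.4 and 111.4 at 2 h and 188.2 and 200.5 in the fasted liver.

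Of 28 genes of glucose uptake and glycolysis, 21 had a peak. Of the 14 in both lists 9 (64.3%) were at least 2-fold higher and 0 lower at 2 h, above the 44.9% of all genes. The 6 in the 2 h list only (28.6%) were near the 26% of all genes, and 1 (Slc2a1) was in the fasted list only. With IgG-free peaks 6 of 12 were higher and 1 (Pgk1) lower, with 3 genes in the 2 h list only and 1 in the fasted list only, and the median ratio was 1.98 in place of 2.29. Slc2a2, the hepatic glucose transporter GLUT2, had 438.1 tags at 2 h and 83.7 in the fasted liver (352.3 and 34.7 IgG-free), in peaks that also overlap the gene 1700112D23Rik. Pklr, liver pyruvate kinase, had 1 IgG-free peak of 121.4 tags at 2 h and no fasted peak. Pfkfb1, which makes and removes fructose 2,6-bisphosphate, had 183.4 tags at 2 h and 311.4 in the fasted liver (37.4 and 27.6 IgG-free).

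Of 20 gluconeogenic genes, 17 had a peak. Of the 11 in both lists 7 (63.6%) were higher and 2 (18.2%) lower at 2 h, both above the shares of all genes (44.9% and 7.98%), and 6 (35.3%) were in the 2 h list only and 0 in the fasted list only. With IgG-free peaks 3 of 7 were higher and 1 lower, with 4 of 13 genes in the 2 h list only and 2 in the fasted list only, and the median ratio was 1.46 in place of 2.33, near the 1.40 of all genes. The enzyme Pck1 had 66.9 tags at 2 h and no fasted peak, with 2924.9 IgG tags elsewhere on the gene. Its 1 peak at 2 h stood at 2-fold over input, the limit of the calling. At G6pc, glucose-6-phosphatase, a peak at chr11:101377888-101380040 reached only the edge of the annotated gene and lay mostly beyond its end. That region had 155.0 tags at 2 h and 46.6 tags in the fasted liver, a ratio of 3.33 (2.65 to 4.21), over 2152 and 879 bp, and was met by IgG. Fbp1, fructose bisphosphatase, had 840.2 tags at 2 h and 388.0 in the fasted liver, all IgG-free. Tat, which breaks down tyrosine, had 539.6 tags at 2 h in a peak that no IgG peak met, no fasted peak, and 3806.1 IgG tags elsewhere on the gene. The 2 h peak of Tat stood at 2.09-fold over input, close to the same limit. Pcx, pyruvate carboxylase, had 1136.3 tags at 2 h and 653.8 in the fasted liver (179.2 and 292.9 IgG-free), and Nr3c1, the glucocorticoid receptor, 2136.1 and 304.2 (239.9 and 29.4). The 2 lower members were regulators: Ppargc1a, the co-activator PGC-1alpha, had 24.2 tags at 2 h and 359.4 in the fasted liver, a ratio of 0.0673 (0.0496 to 0.0894) with no IgG peak on the gene, and Hnf4a, a hepatocyte transcription factor, 201.9 and 540.1, mostly in peaks over more than 1 gene and with a ratio of 2.02 for peaks of at least 3-fold over input. At Ppargc1a the region chr5:51486904-51490057 had 11.4 tags at 2 h over 729 bp and 114.1 in the fasted liver over 3153 bp. Over the whole gene the fold over input ran the other way, 5.72 at 2 h and 2.64 in the fasted liver. Input tags under its peaks were 4.23 at 2 h over 1729 bp and 136 in the fasted liver over 11763 bp. The part of the input RNA in the tag ratio was not tested.

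In glycogen metabolism 14 of 20 genes had a peak, and 6 of 13 in both lists (46.2%) were higher at 2 h, near the 44.9% of all genes, and 2 lower. With IgG-free peaks 3 of 12 (25%) were higher, below the 32.8% of all genes, and 2 lower. In either setting 0 were in the 2 h list only and 1 in the fasted list only, and the median ratio was 1.86 with all peaks and 0.899 with IgG-free peaks. Pygl, glycogen phosphorylase, had 936.9 tags at 2 h and 62.2 in the fasted liver (255.1 and 22.3 IgG-free), and Gys2, glycogen synthase, 258.3 and 138.7 (198.6 and 105.4 IgG-free). Gbe1, the branching enzyme, had 6280.2 tags at 2 h and 2733.7 in the fasted liver, but 367.2 and 426.8 IgG-free tags. Ugp2, which makes UDP-glucose, had 1263.2 tags at 2 h and 125.0 in the fasted liver, but 33.2 and 64.2 IgG-free tags, and Gsk3b, the kinase that inhibits glycogen synthase, 2572.7 and 713.2 (543.8 and 381.8 IgG-free). The lower members were Phka2, a phosphorylase kinase subunit, with 18.9 tags at 2 h and 66.0 in the fasted liver (5.2 and 17.1 IgG-free), and Ppp1cb, a catalytic subunit of protein phosphatase 1, with 276.9 and 601.4 (137.0 and 558.1 IgG-free).

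Lipid synthesis had no member at least 2-fold lower at 2 h with all peaks. Of 22 genes of fatty acid and triglyceride synthesis, 20 had a peak, 10 of 15 in both lists (66.7%) were higher, against 44.9% of all genes, and 4 (20%) were in the 2 h list only and 1 in the fasted list only, against 26% and 8.69%. With IgG-free peaks 7 of 14 (50%) were higher and 1 (Lpin1) lower, against 32.8% and 11.9%, with 3 genes in the 2 h list only and 1 in the fasted list only. Srebf1, the transcription factor that insulin induces to drive lipogenesis, had 120.4 tags at 2 h and 48.5 in the fasted liver (120.4 and 36.1 IgG-free). Its targets Acly and Acacb had 845.7 and 91.9 tags at 2 h and 70.4 and 20 in the fasted liver (182.0 and 83.8, 24.3 and 20 IgG-free). Scd1, the stearoyl-CoA desaturase, and Thrsp, a lipogenic nuclear protein, had 117.1 and 42.2 tags at 2 h (71.6 and 42.2 IgG-free) and no fasted peak. Elovl6, a fatty acid elongase, had 8600.4 tags at 2 h and 223.9 in the fasted liver, but only 61.7 and 37.6 IgG-free tags, and Acaca, acetyl-CoA carboxylase, 3356.8 and 657.0 (229.0 and 218.6 IgG-free). Me1, malic enzyme, had 1291.5 tags at 2 h and 370.8 in the fasted liver (194.8 and 90.7 IgG-free), and Gpam, which starts glycerolipid synthesis, 1187.6 and 838.3 (122.7 and 189.3). Fasn, fatty acid synthase, had 1 peak of 51.2 tags at 2 h, met by IgG, and no fasted peak. The IgG list held 2146.3 tags on Fasn.

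Sterol genes gave like counts with and without IgG-met peaks. Of 21 genes 15 had a peak, 8 of 12 in both lists (66.7%) were higher and 1 lower at 2 h, and 3 (20%) were in the 2 h list only. With IgG-free peaks 7 of 10 (70%) were higher and 1 lower, against 32.8% and 11.9% of all genes, and 2 were in the 2 h list only. Srebf2, the regulator of sterol synthesis, had 173.6 tags at 2 h and 67.1 in the fasted liver (39.9 and 14.3 IgG-free), and Hmgcs1, an early enzyme of the pathway, 91.1 and 9.5 (41.3 and 9.5). Insig2, which retains SREBP in the endoplasmic reticulum, had 301.6 and 100.3 tags, but 117.6 and 73.7 IgG-free tags, within 2-fold. Abca1, a cholesterol exporter, had 2435.0 and 855.4 tags (787.5 and 333.3 IgG-free).

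Fatty acid oxidation and ketogenesis had a lower median ratio than all genes, 1.27 with all peaks and 0.767 with IgG-free peaks, against 1.80 and 1.40 over all genes. Of 26 genes 21 had a peak, 6 of 19 in both lists (31.6%) were higher and 1 lower at 2 h, and 2 were in the 2 h list only. With IgG-free peaks 5 of 16 (31.2%) were higher, near the 32.8% of all genes, and 5 (31.2%) lower, above the 11.9% of all genes, with 1 gene in the 2 h list only and 3 in the fasted list only. The 5 lower genes were Cpt1a, Cpt2 and Slc25a20 of the carnitine shuttle, Acadl, an acyl-CoA dehydrogenase, and Cd36, a fatty acid transporter. Cpt1a, the rate-limiting step of entry into mitochondria, had 591.7 tags at 2 h and 1020.7 in the fasted liver (171.7 and 512.5 IgG-free), and Cpt2 32.7 and 96.0 (32.7 and 80.8). Ppara, the transcription factor of the fasting response, had 1789.3 tags at 2 h and 945.7 in the fasted liver, but 180.6 and 243.4 IgG-free tags. On the other side Acsl1, which activates long-chain fatty acids, had 3889.7 tags at 2 h and 473.5 in the fasted liver (1692.6 and 208.2 IgG-free), and Hadhb, of the trifunctional protein, 184.5 and 51.3 (158.4 and 51.3).

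**Figure D5:**
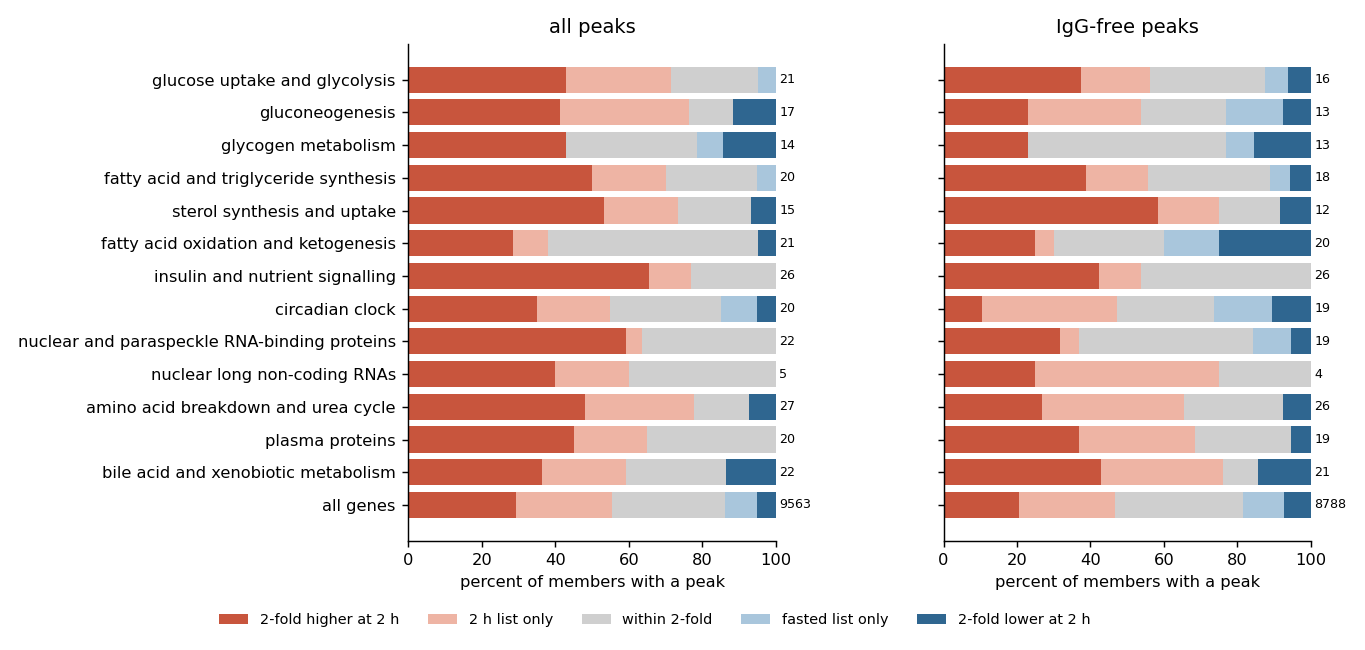
Share of the members with a peak in each pathway list that were at least 2-fold higher at 2 h, in the 2 h list only, within 2-fold, in the fasted list only or at least 2-fold lower at 2 h, with all peaks and IgG-free peaks; the number at the right is the members with a peak. The insulin list holds 17 higher and 0 lower members with all peaks, and the fatty acid oxidation list 5 higher and 5 lower with IgG-free peaks.

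Amino acid breakdown and the urea cycle had 27 of 30 genes with a peak, of which 8 (29.6%) were in the 2 h list only and 0 in the fasted list only, against 26% and 8.69% of all genes. Of 19 in both lists 13 (68.4%) were higher and 2 (Tdo2 and Dbt) lower at 2 h. With IgG-free peaks 7 of 16 (43.8%) were higher and 2 (12.5%) lower, and 10 of 26 (38.5%) were in the 2 h list only and 0 in the fasted list only. Cps1, which starts the urea cycle, had 6906.1 tags at 2 h and 3763.2 in the fasted liver (3507.6 and 2867.0 IgG-free), and Asl, argininosuccinate lyase, 842.5 and 96.6 (391.6 and 96.6). Bhmt had 1433.8 tags at 2 h and 118.4 in the fasted liver (1305.3 and 118.4 IgG-free). Kynu, of the kynurenine pathway that Tdo2 opens, had 4228.3 tags at 2 h and 928.1 in the fasted liver (385.0 and 161.7 IgG-free) and so ran opposite to Tdo2. Bckdhb, of branched-chain amino acid breakdown, had 3190.5 tags at 2 h and 1233.6 in the fasted liver, but 556.3 and 373.5 IgG-free tags, within 2-fold. Dbt, another subunit of that complex, had 23.7 and 63.2 tags, all IgG-free.

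Plasma protein genes had 9 of 16 members in both lists (56.2%) higher and 0 lower at 2 h, with 20 of 30 genes having a peak, 4 (20%) of them in the 2 h list only. With IgG-free peaks 7 of 13 (53.8%) were higher and 1 lower, and 6 of 19 (31.6%) were in the 2 h list only. Apob, the protein of very-low-density lipoprotein, had 1983.4 tags at 2 h and 151.7 in the fasted liver, and 1358.0 IgG-free tags at 2 h with no IgG-free fasted peak. Ahsg, fetuin A, had 1291.1 and 895.3 tags in 1 peak a side that also overlaps another gene. In bile acid and xenobiotic metabolism 8 of 17 (47.1%) were higher, near the 44.9% of all genes, and 3 (17.6%) lower, above 7.98%, and 5 of 22 (22.7%) were in the 2 h list only. With IgG-free peaks 9 of 14 (64.3%) were higher and 3 lower, against 32.8% and 11.9%, and 7 of 21 (33.3%) were in the 2 h list only. Of the plasma protein and bile acid genes 0 were in the fasted list only in either setting. Cyp7a1, the rate-limiting enzyme of bile acid synthesis, had 261.7 tags at 2 h (55 IgG-free) and no fasted peak. The peaks of Cyp7a1 stood at 2.03-fold and 2.12-fold over input, close to the 2-fold limit. Cyp27a1 of the alternative route had 515.4 tags at 2 h (46.5 IgG-free) and no fasted peak. Abcb11, the bile salt export pump, had 1542.8 tags at 2 h and 204.3 in the fasted liver (314.4 and 71.8 IgG-free). Cyp7b1, also of the alternative route, had 34951.4 and 6729.9 tags but 513.0 and 181.6 IgG-free tags.

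The counts of clock genes depended on the IgG list. Of 22 genes 20 had a peak, 7 of 14 in both lists (50%) were higher and 1 (Tef, 7.14%) lower at 2 h, near the 44.9% and 7.98% of all genes, 4 (20%) were in the 2 h list only and 2 (Dbp and Ciart, 10%) in the fasted list only. With IgG-free peaks 2 of 9 (22.2%) were higher and 2 lower, while 7 of 19 (36.8%) were in the 2 h list only and 3 (15.8%) in the fasted list only, against 26.3% and 11.1% of all genes. Per2, a repressor of the clock, had 439.8 tags at 2 h and 21.8 in the fasted liver, 20.1-fold (15 to 27.7), of which 78.2 tags at 2 h were IgG-free and none in the fasted liver, and the ratio was 0.586 with peaks of at least 3-fold over input. Per1 had 155.5 tags at 2 h and 20 in the fasted liver (144.1 IgG-free at 2 h, none fasted), and Cry1 324.4 and 64.6 (64.1 and 37.5). Clock had 1244.9 tags at 2 h and 289.1 in the fasted liver (185.8 and 104.6 IgG-free). Arntl, the partner of CLOCK, had 46.9 IgG-free tags at 2 h and no fasted peak, and Dbp, an output factor of the clock, 20.9 tags in the fasted liver and no 2 h peak. Nr1d2, a repressor of the clock, had 284.0 tags at 2 h and 364.2 in the fasted liver, but 242.3 and 66.5 IgG-free tags.

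The genes of NONO and its partners had unequal ratios. Nono had 144.1 tags at 2 h and 101.7 in the fasted liver (120.9 and 101.7 IgG-free). Pspc1 had 1277.3 tags at 2 h and 155.5 in the fasted liver (237.2 and 92.2 IgG-free), over 28212 and 5499 bp, but a ratio of 0.672 with peaks of at least 3-fold over input. Over Sfpq a single IgG-free region of the 2 h list only, chr4:127027846-127034783, held 2770.8 tags at 2.27-fold over input, the most of any IgG-free region of that class, but it also overlaps the gene Gm12940, and strand could not be used. Of the 25 nuclear RNA-binding proteins 22 had a peak, 13 of 21 in both lists (61.9%) were higher and 0 lower at 2 h, against 44.9% and 7.98% of all genes, and 1 was in the 2 h list only. With IgG-free peaks 6 of 16 (37.5%) were higher and 1 (Hnrnpa2b1) lower, against 32.8% and 11.9%, with 1 gene in the 2 h list only and 2 in the fasted list only. Hnrnpu, which organises chromatin-associated RNA, had 492.1 tags at 2 h and 24.7 in the fasted liver, all IgG-free, and Cpsf6, a partner of paraspeckle RNA processing, 889.1 and 125.6 (476.1 and 18.1 IgG-free). Hnrnpa2b1, an RNA transport and splicing factor, had 1182.9 and 340.4 tags but 45.0 and 340.4 IgG-free tags.

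Neat1 had fewer tags at 2 h, in a denser fasted peak. The region that holds it, chr19:5820261-5844759, had 1 peak at 2 h and 3 in the fasted liver, and over the gene body 20421.0 tags in 23935 bp at 2 h and 30057.4 tags in 19969 bp in the fasted liver, a ratio of 0.679 (0.671 to 0.688). Tags per covered kb were 853 at 2 h and 1505.2 in the fasted liver, and the fold over input was 3.30 and 4.33. Both peaks were met by IgG, whose list had 24836.0 tags on the gene, so Neat1 has no IgG-free value. Malat1, another abundant nuclear RNA, had no peak in either list. Kcnq1ot1, an imprinted non-coding RNA inside Kcnq1, had 995.4 tags at 2 h and 417.4 in the fasted liver, of which 54.1 at 2 h and none in the fasted liver were IgG-free.

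Peaks also reached more gene starts at 2 h. A peak covered at least 150 bases of the window of 250 bases before to 50 after the RefSeq start in 471 of 27025 genes for the 2 h list only (1.74%), 70 for the fasted list only (0.259%) and 68 for both (0.252%). Of the 248 matched genes of the pathway lists, 18 were in the 2 h list only (7.26%), 4 in the fasted list only (1.61%) and 3 in both (1.21%). The 18 were Acsl1, Fbp1, Gbe1, Gckr, Itih1, Lpin2, Mttp, Nr1h4, Pfkfb1, Pik3ca, Ppp1r3c, Rbp4, Serpina1a, Slc37a4, Srebf1, Tat, Thrsp and Ugt1a1, and the 4 were Ghr, Nr1i2, Per1 and Slco1a1. At Mttp and Gbe1 a fasted peak covered 113 and 118 bases of the window, short of the 150 needed. The Per1 window lay in a region of both lists whose 2 h peak did not reach the window. IgG peaks covered the windows of Acsl1, Gckr, Itih1 and Pik3ca. Some peaks were small: the fasted peak at Nr1i2 held 7.1 tags, and the 2 h peaks at Pfkfb1 and Serpina1a held 6.6 and 8.1 tags. The lists are of genes that liver expresses, and no list of equally expressed genes was set beside them. IgG peaks covered 25.9% of the 517 start windows of the 2 h list only and 7.89% of the 76 of the fasted list only.

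The 250 bases before the start are shown for the 4 list genes of the 2 h list only with most tags in the covering peak, whose window met no IgG and no fasted peak, and for the fasted counterpart with most tags (RefSeq, GRCm38.p6). Letters run 5′ to 3′ on the gene's strand, and capitals mark AGGGA and CACGTG, the E-box that clock and glucose-responsive factors read.
Tat, chr8:109990186-109990435, plus strand: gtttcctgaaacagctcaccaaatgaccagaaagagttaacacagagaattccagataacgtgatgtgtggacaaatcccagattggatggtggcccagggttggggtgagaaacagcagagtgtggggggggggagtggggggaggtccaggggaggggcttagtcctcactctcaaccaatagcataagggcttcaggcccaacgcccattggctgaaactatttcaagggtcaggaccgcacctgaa
Nr1h4, chr10:89506659-89506908, minus strand: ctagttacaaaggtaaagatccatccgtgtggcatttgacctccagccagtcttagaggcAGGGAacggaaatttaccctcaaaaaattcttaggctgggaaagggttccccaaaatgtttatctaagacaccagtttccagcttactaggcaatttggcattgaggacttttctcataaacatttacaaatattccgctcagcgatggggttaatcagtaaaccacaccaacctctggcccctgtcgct
Ppp1r3c, chr19:36736605-36736854, minus strand: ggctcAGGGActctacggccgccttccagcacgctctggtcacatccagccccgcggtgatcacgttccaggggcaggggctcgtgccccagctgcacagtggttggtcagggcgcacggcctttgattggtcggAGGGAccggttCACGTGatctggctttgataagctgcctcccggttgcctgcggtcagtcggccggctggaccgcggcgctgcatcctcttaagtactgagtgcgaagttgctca
Fbp1, chr13:62888283-62888532, minus strand: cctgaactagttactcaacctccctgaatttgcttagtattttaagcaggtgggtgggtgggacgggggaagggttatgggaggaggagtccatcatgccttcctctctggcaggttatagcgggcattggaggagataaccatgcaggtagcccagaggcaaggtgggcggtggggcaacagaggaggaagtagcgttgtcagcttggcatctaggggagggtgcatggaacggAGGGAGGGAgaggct
Ghr, chr15:3581843-3582092, minus strand: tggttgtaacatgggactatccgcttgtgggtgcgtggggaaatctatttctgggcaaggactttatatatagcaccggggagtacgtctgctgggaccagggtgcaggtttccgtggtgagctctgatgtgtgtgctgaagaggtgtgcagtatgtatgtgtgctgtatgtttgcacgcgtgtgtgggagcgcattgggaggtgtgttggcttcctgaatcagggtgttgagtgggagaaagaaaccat

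The peak at the start of Tat held 539.6 tags over 1675 bp at 2 h. Those at Nr1h4, Ppp1r3c (which targets protein phosphatase 1 to glycogen) and Fbp1 held 231.9, 133.7 and 93.4 tags at 2 h; the Ppp1r3c peak met an IgG peak beyond the window. The fasted peak at the start of Ghr held 198.3 tags, although the gene as a whole had more tags at 2 h. CACGTG was in 9.09% of the 517 start windows of the 2 h list only, 5.26% of the 76 of the fasted list only and 7.15% of all 32851 windows, and AGGGA on either strand in 63.8%, 53.9% and 63.3%. The windows are RefSeq starts, and those of Nr1h4 and Ghr lie within the longer gene bodies of GENCODE.

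Marker genes of liver cell types were few in both lists. Of 7 hepatocyte markers 4 had a peak (Cps1, Apob, Tat and Hnf4a), with 9631 summed tags at 2 h and 4455 in the fasted liver, while Alb, Ttr and Cyp2e1 had none in either list. A peak needs more tags in the RIP than in the input, so an abundant RNA can be without one. Of 7 endothelial markers Stab2 and Kdr had a peak, with 527.6 and 136.5 tags at 2 h and 255.3 and 43.8 in the fasted liver. Of Kupffer cell markers 3 of 6 had one, with 14.2 summed tags at 2 h and 23.8 in the fasted liver, of stellate cell markers 2 of 6 (40.8 and 47.1), of lymphocyte and erythroid markers 1 of 5 (61.7 and 52.8) and of cholangiocyte markers 0 of 5.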

How the data were processed

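Per the submitters' processing notes, reads were handled with FastQC 0.11.2, STAR 2.4.0k and HOMER on mm10, from a stranded total RNA library with ribosomal RNA removal. HOMER peaks, per the file headers, are 500 bp windows merged where less than 1000 bp apart, without regard to strand, at 2-fold or more over the input of the same state with a stated tag threshold of 11 (8 for IgG), although the lowest listed peaks hold 8 raw tags (6 for IgG). The deposited signal is tags in the peak per 10000000 library tags. Beside it, the 2 h and fasted lists give RIP tags scaled to the input, and the unscaled input tags. Those input tags were put here on a scale of 10000000 tags, with an input total inferred from the scaled RIP tags. The deposited fold, a ratio of RIP to input tags, the deposited score and the deposited counts of raw tags were used to describe, rank and filter peaks. The deposited p-value was not used.

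From these lists, peaks were joined at 1 bp and laid on GENCODE M21 gene bodies (21951 protein-coding and 10155 non-coding), a peak counting for every body it overlapped. A peak or region is IgG-free where no IgG peak overlapped it. Since peaks carry no strand, overlapping and antisense genes cannot be separated. A difference is called past 2-fold in summed tags. Intervals are exact (Clopper-Pearson for shares, conditional on the sum for ratios, both at 95%) and cover counting error only. The rule names, per side, the 8 genes with the largest difference in IgG-free tags, the 5 by difference in IgG-free covered bp, the 5 of that list only, the 4 largest regions of 1 list and the 5 shared regions of widest ratio, then up to 4 members per list by tags and a set of paraspeckle, clock and glucose genes whatever their value. Some of the genes and sequences that the rules name are not reported here. The regions, the 19 gene lists and the rules were chosen with earlier results of these data known. Windows read from a genome were not analysed here; annotated exons and RefSeq start windows took their place, an addition made after the files were seen. The region code was tested on simulated peaks, and the reading of bases from transcripts was checked against RefSeq start windows. Computations ran in Python 3.11.15 with scipy 1.17.1, pandas 2.3.3 and numpy 2.4.6, and plots in matplotlib 3.10.9.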

Additional observations from a re-analysis of the deposited data

How the results depend on the processing

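No paired analysis was possible because a single pooled library stands on either side. Of the summary values recomputed, 25 kept their side and size, 17 moved and 2 turned; of the values of genes and lists, 186 kept, 185 moved and 30 turned, in no case with its cause tested. With IgG-free peaks 8045 regions were in both lists, their median tag ratio was 1.0 and 1804 genes were higher. With lists of equal length 25157 regions were in the 2 h list only and 23529 in the fasted list only, the ratio was 1.427, and 1481 genes were in the 2 h list only and 1688 in the fasted list only. With peaks of at least 3-fold over input 29000 regions were in the 2 h list only and 4244 in both, with a ratio of 1.081. The ratio was 1.361 when an overlap of 50% of the shorter peak was needed, 1.301 for tags above input and 1.0, by construction, after scaling to shared regions. Tags per covered bp gave 0.8348, with 193 genes higher and 323 lower, and regions of matched extent 0.8474; both were chosen after seeing the data. At 3-fold in place of 2-fold 1555 genes were higher and 251 lower.

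List medians turned with IgG-free peaks for glycogen (0.8988), fatty acid oxidation (0.767) and clock genes (0.9729), with peaks of at least 3-fold for fatty acid synthesis (0.7213) and plasma proteins (0.6164), and with equal lists for long non-coding RNAs (0.8241). Only chosen genes were checked one by one. With IgG-free peaks the ratio turned at 10 of 57 such genes. These were Pfkfb1 (1.356), Foxo1 (0.6078), Pcx (0.6117), Gbe1 (0.8603), Ugp2 (0.5171), Gpam (0.6482), Ppara (0.742), Foxo3 (0.5554), Nr1d2 (3.644) and Hnrnpa2b1 (0.1322). Genes outside that check turned as well, among them Slc25a20, Lpin1 and Pgk1 to the fasted side and Slco1a1 to the 2 h side. With peaks of at least 3-fold the ratio turned at 13 of 37 chosen genes. These were Gfra1 (13.23), Tmtc2 (2.31), Pde4d (1.008), Pfkfb1 (3.485), Ugp2 (0.2368), Acaca (0.7213), Gpam (0.312), Ghr (0.46), Clock (0.8641), Kcnq1ot1 (0.9272), Hnf4a (2.02), Per2 (0.5863) and Pspc1 (0.672). With equal lists it turned at 1 of 63 chosen genes, Nono (0.2281). Small peaks rest on as few as 8 tags, and a gene without a peak has an unknown level.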
